A study of Mus musculus with 8 samples.

Results

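Primitive endoderm is the first endoderm of the mouse embryo, and the expression of 10 of its regulators and markers was examined in embryonic stem cells (ESC) and hematopoietic stem cells (HSC) with and without the zinc finger transcription factor Zfx. The genes were the transcription factors Gata4, Gata6, Sox17, Sox7, Foxa2 and Hnf4a, the receptor Pdgfra, and the endocytic proteins Dab2, Amn and Cubn. They were taken by symbol, as every probe set that the platform annotation assigned to 1 of these genes alone. This gave 24 probe sets of 10 genes, out of 45037 non-control probe sets and 18193 genes with a probe set of their own. The question was whether ESC without Zfx drift towards endoderm.

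The study hybridized 8 Affymetrix Mouse Genome 430 2.0 arrays in 4 groups of 2. Zfx-null ESC clones were compared with control Zfx-flox clones, which carry the conditional allele, and both were kept on gelatin with leukemia inhibitory factor (LIF) and 15% serum replacement, without feeder cells. Zfx-cko HSC came from Mx1-Cre+ Zfx flox/y mice and were compared with Zfx-flox HSC of Cre- Zfx flox/y littermates. Mx1-Cre is switched on by the interferon inducer pI·C in blood cells and in other tissues. Marrow was collected on day 4 after the last pI·C dose and pooled over 4 to 6 mice, and 50000 Lin- Sca-1+ c-Kit+ cells were sorted, a gate that holds stem cells together with early progenitors. The labels give no age for the mice and do not say how many clones stood behind the ESC arrays. HSC RNA went through 2 amplification rounds and ESC RNA through 1, so cell type and amplification cannot be told apart and levels in ESC and HSC are given side by side without a test. Samples were hybridized in duplicate, and if both arrays of a group carry the same RNA, the p-values measure technical spread alone.

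In the blastocyst, the inner cell mass separates into epiblast, which keeps Nanog, and primitive endoderm, which turns on Gata6 under FGF4 signalling through ERK. Pdgfra, Sox17, Gata4 and Sox7 follow as the cells sort to the surface, and the layer later forms visceral endoderm, which takes up maternal nutrients, and parietal endoderm, which lays down a thick basement membrane. Uptake by visceral endoderm rests on the receptors cubilin and megalin, on the membrane protein amnionless that carries cubilin to the cell surface, and on the adaptor Dab2 that links the receptors to clathrin. ESC in culture can give rise to primitive endoderm when Gata4 or Gata6 is forced on.

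The deposited scaling gave each array a trimmed mean of 250. Medians ran from 63.3 to 66.5 in ESC and from 38.4 to 47.1 in HSC. Correlations of log2 values between the arrays of a group were 0.980 to 0.987. The probe set 1422249_s_at, which is annotated to Zfx and Zfa-ps, read 1.32 and 0.878 in Zfx-null ESC, against 285 and 298 in Zfx-flox ESC. In HSC it read 1.34 and 0.305 in Zfx-cko cells, against 7.22 and 0.971 in Zfx-flox cells, too dim to check these labels. Of the 7 probe sets annotated to Zfx, 5 were called higher in Zfx-null ESC, by 1.77-fold to 3.34-fold. In HSC 1425972_a_at was called higher in Zfx-cko cells, with 1192 and 1209 against 696 and 752 in Zfx-flox cells, while 1419565_a_at read 97.4 and 84.7 in Zfx-cko cells, against 108.8 and 162.0 in Zfx-flox cells, and did not pass (limma adjusted p = 0.104). No source used here says which probe sets lie in the deleted segment. The ESC marker list (Pou5f1, Nanog, Sox2, Zfp42, Dppa4, Utf1) summed to 11662 and 12198 in Zfx-null ESC and to 17161 and 17947 in Zfx-flox ESC, and to between 57.1 and 62.9 on the HSC arrays, where all 6 genes were too dim to test. Markers of the HSC gate (Kit, Ly6a, Cd34, Ptprc and others) summed to 17175 and 17186 in Zfx-cko HSC, against 6622 and 7115 in Zfx-flox HSC. They summed to at most 1362 on the ESC arrays. Of these markers 6 of 6 tested were higher in Zfx-cko cells, where 22.3% of all 12535 tested genes were higher. Signal of 5′ over 3′ Gapdh probe sets differed by 0.38 to 0.44 on the log2 scale in ESC and by −4.68 to −4.18 in HSC, so probe sets far from the 3′ end are weakly measured in HSC.

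In ESC, Dab2 was higher without Zfx by all 4 of its probe sets, and no other member gene passed the test in either direction. The deposited intensity of its brightest probe set was 2.81-fold higher in Zfx-null than in Zfx-flox ESC. No tested probe set of a transcription factor passed. The Zfx-null arrays of Gata4, Foxa2, Amn and Cubn lay below those of Zfx-flox ESC. For both Sox17 probe sets, Gata6 1425463_at and Pdgfra 1438946_at the Zfx-null arrays lay above. Of 24 probe sets, 17 of 9 genes were bright enough to test, 4 were higher and 0 were lower, where 12.0% of all tested probe sets were higher, 12.4% lower and 24.4% changed in either direction (limma, Benjamini-Hochberg adjusted p below 0.05 over 27022 probe sets). At an unadjusted p below 0.05 there were 7, which adds both Sox17 probe sets and 1 of Cubn. The 4 higher probe sets were all of Dab2, 1 of the 9 genes with a tested probe set. By 1 probe set per gene, 15.1% of 12677 tested genes were higher and 14.1% lower. Over all 24 probe sets the Zfx-null arrays lay above both Zfx-flox arrays for 8 and below both for 7, where 22.9% and 28.3% of all probe sets on the array did so. The median log2 change of the 24 was −0.09, against −0.03 over all probe sets. Log2 changes are on the scale log2(intensity + 14.2), which understates changes of dim genes, and each comes with its standard error (SE) from 2 arrays per group. In these bulk samples, more cells of a type and more RNA per cell cannot be told apart.

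Dab2 encodes a clathrin adaptor that binds the tails of megalin and related receptors and marks primitive endoderm in the blastocyst. Its probe set 1420498_a_at read 1173 and 1107 in Zfx-null ESC, against 413 and 399 in Zfx-flox ESC. The means were 1139.9 ± 46.9 and 406 ± 9.46 (SD, n = 2 each). The gap between the groups was far wider than the spread within either, and the log2 change was 1.46 ± 0.14 (limma adjusted p = 0.000308). It passed the threshold under all 19 alternatives of the processing, with values of 1.38 to 1.63.

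The other Dab2 probe sets, which sample the same transcripts, gave changes of like size. Probe set 1423805_at read 375 and 430 in Zfx-null ESC, against 135 and 157 in Zfx-flox ESC, a log2 change of 1.38 ± 0.24 (limma adjusted p = 0.00441). Probe set 1429693_at read 201 and 186 in Zfx-null ESC, against 55.6 and 74.3 in Zfx-flox ESC, a change of 1.40 ± 0.27 (adjusted p = 0.00694, and 0.0875 without a pseudocount). The last, 1430604_a_at, read 139 and 113 in Zfx-null ESC, against 42.2 and 48.5 in Zfx-flox ESC, a change of 1.23 ± 0.24 (adjusted p = 0.00750, and 0.0524 without Zfx-null replicate 1). The ratio of group means ran from 2.75 to 2.99 over the 4 probe sets, and in no probe set did an array of one group reach the other group.

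**Figure D1:**
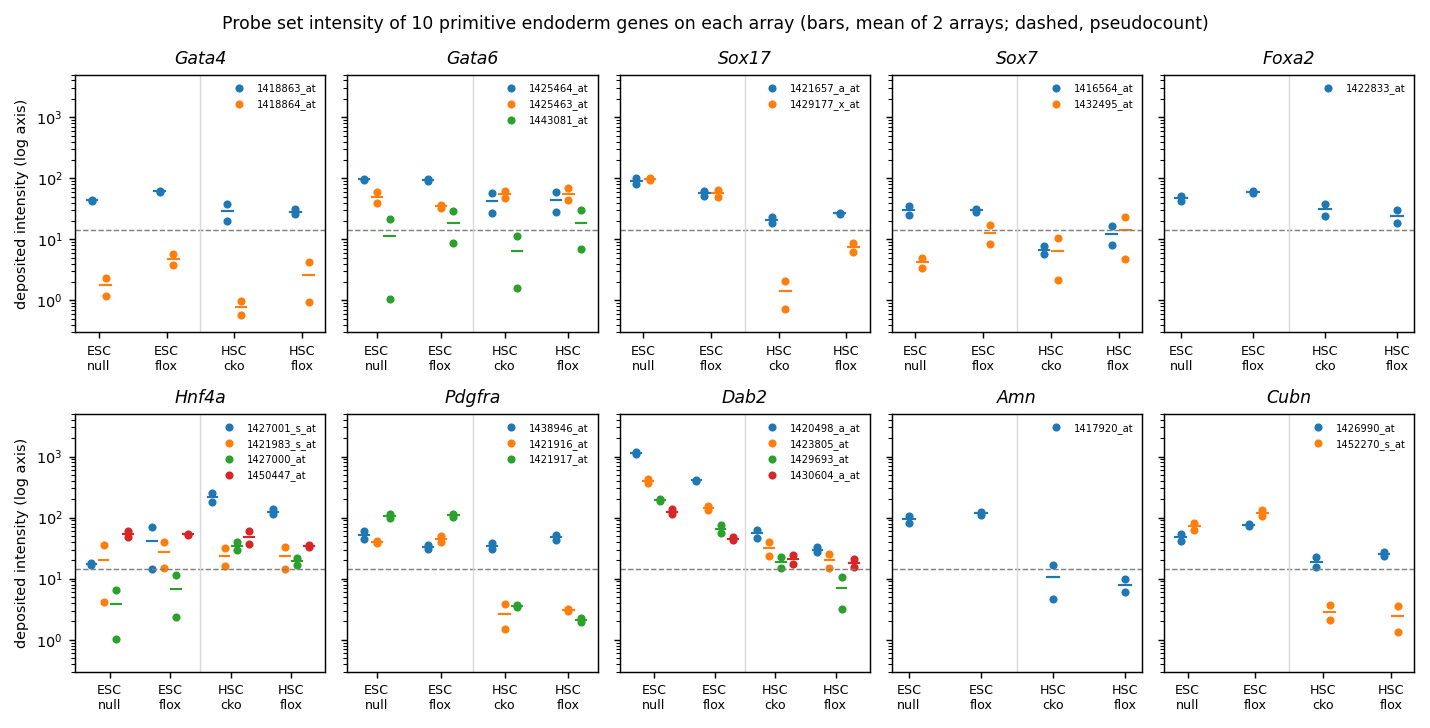
Deposited intensity of the probe sets of the 10 primitive endoderm genes on each array of the 4 groups (log axis; points are arrays). Dab2 stands apart in ESC, with 1173 and 1107 in Zfx-null against 413 and 399 in Zfx-flox for its brightest probe set. Among the other tested probe sets some overlap between Zfx-null and Zfx-flox ESC, and others, such as those of Sox17 and Cubn, lie apart by less.

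RefSeq promoter windows (GRCm38.p6) were matched by symbol for 6 of the 10 genes, in 10 windows. The 250 bases before the annotated start are shown for both Dab2 starts, since Dab2 was the one member that passed the test in ESC. They are also shown for its endocytic partners Amn and Cubn, which did not pass. Capitals mark the letters AGATAA or TGATAA, the form that GATA factors bind, searched on both strands.
Dab2, upstream start, chr15:6299539-6299788, plus strand: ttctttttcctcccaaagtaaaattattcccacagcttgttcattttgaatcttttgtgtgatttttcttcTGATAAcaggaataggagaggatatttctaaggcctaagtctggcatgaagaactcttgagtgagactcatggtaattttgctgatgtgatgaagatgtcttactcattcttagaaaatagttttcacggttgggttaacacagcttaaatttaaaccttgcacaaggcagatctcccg
Dab2, downstream start, chr15:6386498-6386747, plus strand: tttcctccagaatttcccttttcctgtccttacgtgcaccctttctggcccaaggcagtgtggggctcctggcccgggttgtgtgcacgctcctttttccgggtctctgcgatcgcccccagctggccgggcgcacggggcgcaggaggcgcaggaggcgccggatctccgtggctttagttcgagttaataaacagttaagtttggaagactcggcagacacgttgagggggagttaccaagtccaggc
Amn, chr12:111270846-111271095, plus strand: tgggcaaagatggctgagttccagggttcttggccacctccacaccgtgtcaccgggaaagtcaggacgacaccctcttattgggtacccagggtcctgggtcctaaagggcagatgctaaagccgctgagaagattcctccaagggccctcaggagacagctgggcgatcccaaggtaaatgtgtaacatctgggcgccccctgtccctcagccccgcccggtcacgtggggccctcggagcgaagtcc
Cubn, chr2:13491877-13492126, minus strand: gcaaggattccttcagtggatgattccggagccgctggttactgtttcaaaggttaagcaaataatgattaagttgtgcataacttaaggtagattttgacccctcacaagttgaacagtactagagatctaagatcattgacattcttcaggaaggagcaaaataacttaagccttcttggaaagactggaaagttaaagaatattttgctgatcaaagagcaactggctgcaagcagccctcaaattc
The upstream Dab2 window is poor in G and C (36.8%, with 2 CpG) and holds TGATAA 179 bases before the start. The downstream one has 60% G and C and 17 CpG and no such letters, and neither do the Amn window (61.2%, 11 CpG) nor the Cubn window (39.6%, 2 CpG). Among all 10 windows, 3 held GATA letters, 1 each of Dab2, Foxa2 and Hnf4a, where 16.6% of 32851 windows of this length held them. The letters CATTGT, a form bound by SOX factors, were in 0 of the 10 and in 10.7% of all windows. The FOXA forms TGTTTAC and TGTTTGC, also searched on both strands, were in 0 of the 10 and in 7.29% of all windows. A match is a description of the sequence alone, and the deposited files hold no binding data.

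The transcription factors that install the primitive endoderm program gave 0 calls among 7 tested probe sets in ESC, where 24.4% of all tested probe sets were called. At an unadjusted p below 0.05 (limma) there were 2, both of Sox17. With so few probe sets, 0 calls is not far from that share. Gata6, the earliest of them, read 95.0 and 98.0 in Zfx-null ESC, against 89.9 and 99.1 in Zfx-flox ESC on probe set 1425464_at. The groups overlapped and the log2 change was 0.03 ± 0.34 (limma adjusted p = 0.967). A further Gata6 probe set, 1425463_at, read 38.8 and 60.3 in Zfx-null ESC, against 37.2 and 32.3 in Zfx-flox ESC, a change of 0.36 ± 0.28 (adjusted p = 0.393). The last, 1443081_at, was too dim to test and its arrays overlapped.

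Gata4 follows Gata6 in the blastocyst and is needed for visceral endoderm and heart formation. Its testable probe set 1418863_at read 42.8 and 44.3 in Zfx-null ESC, against 62.3 and 60.7 in Zfx-flox ESC. Both Zfx-null arrays were lower, and the log2 change was −0.39 ± 0.26 (limma adjusted p = 0.333). The second Gata4 probe set, 1418864_at, read at most 5.78 on any array, below the pseudocount of 14.2.

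Sox17, which acts in primitive endoderm, in definitive endoderm and in fetal HSC, was the member nearest to the threshold after Dab2. Probe set 1421657_a_at read 80.8 and 99.7 in Zfx-null ESC, against 51.8 and 61.2 in Zfx-flox ESC. Probe set 1429177_x_at read 95.3 and 100.2 in Zfx-null ESC, against 64.8 and 49.9 in Zfx-flox ESC. Both Zfx-null arrays were higher by either probe set, with log2 changes of 0.56 ± 0.23 (limma adjusted p = 0.114) and 0.65 ± 0.23 (adjusted p = 0.0789), which do not pass the test. The second passed with a larger pseudocount (0.45, adjusted p = 0.0208) and with a fit without a variance trend (adjusted p = 0.0318).

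Sox7, a relative of Sox17 that marks parietal endoderm, had no probe set bright enough to test. Its probe set 1416564_at read 25.4 and 35.1 in Zfx-null ESC, against 28.3 and 31.7 in Zfx-flox ESC, and the groups overlapped. Probe set 1432495_at read 5.01 and 3.36 in Zfx-null ESC, against 17.4 and 8.29 in Zfx-flox ESC, near or below the pseudocount.

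Foxa2 acts in visceral and definitive endoderm, and Hnf4a runs the secretory program of visceral endoderm and later of liver. Foxa2 (1422833_at) read 52.0 and 42.3 in Zfx-null ESC, against 62.1 and 56.6 in Zfx-flox ESC, a log2 change of −0.26 ± 0.27 (limma adjusted p = 0.537). Of 4 Hnf4a probe sets, 1450447_at could be tested in ESC, with 47.5 and 59.3 in Zfx-null cells, against 54.1 and 52.4 in Zfx-flox cells. Its groups overlapped (log2 change −0.00 ± 0.25, adjusted p = 0.997). Hnf4a 1427001_s_at read 18.4 and 17.0 in Zfx-null ESC, against 69.5 and 14.3 in Zfx-flox ESC, so a single Zfx-flox array stood far above the other 3, and it was too dim to test.

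Pdgfra encodes the PDGF receptor alpha, a surface marker of the first primitive endoderm cells. Probe set 1438946_at read 60.6 and 44.8 in Zfx-null ESC, against 30.8 and 36.1 in Zfx-flox ESC. Both Zfx-null arrays were higher, and the log2 change of 0.48 ± 0.24 did not pass (limma adjusted p = 0.192). Probe set 1421917_at read 114.3 and 98.1 in Zfx-null ESC, against 115.2 and 101.9 in Zfx-flox ESC (log2 change −0.03 ± 0.22, adjusted p = 0.943). Probe set 1421916_at read 41.0 and 38.0 in Zfx-null ESC, against 50.2 and 40.4 in Zfx-flox ESC (−0.14 ± 0.21, adjusted p = 0.679). Both overlapped between groups, so the Pdgfra probe sets disagree.

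Cubilin and amnionless form the receptor that takes up vitamin B12 bound to intrinsic factor in gut and protein cargo in visceral endoderm and kidney. Cubn 1452270_s_at read 62.0 and 82.5 in Zfx-null ESC, against 135.3 and 104.2 in Zfx-flox ESC, a log2 change of −0.63 ± 0.25 (limma adjusted p = 0.109). Cubn 1426990_at read 54.3 and 41.1 in Zfx-null ESC, against 71.9 and 78.0 in Zfx-flox ESC, a change of −0.53 ± 0.24 (adjusted p = 0.150). Amn (1417920_at) read 82.0 and 105.7 in Zfx-null ESC, against 124.9 and 109.2 in Zfx-flox ESC, a change of −0.29 ± 0.29 (adjusted p = 0.533). The Zfx-null arrays lay below the Zfx-flox arrays in these 3 probe sets and above them in the 4 of Dab2. Cubn 1452270_s_at passed as lower with a larger pseudocount alone (−0.46, adjusted p = 0.0397).

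**Figure D2:**
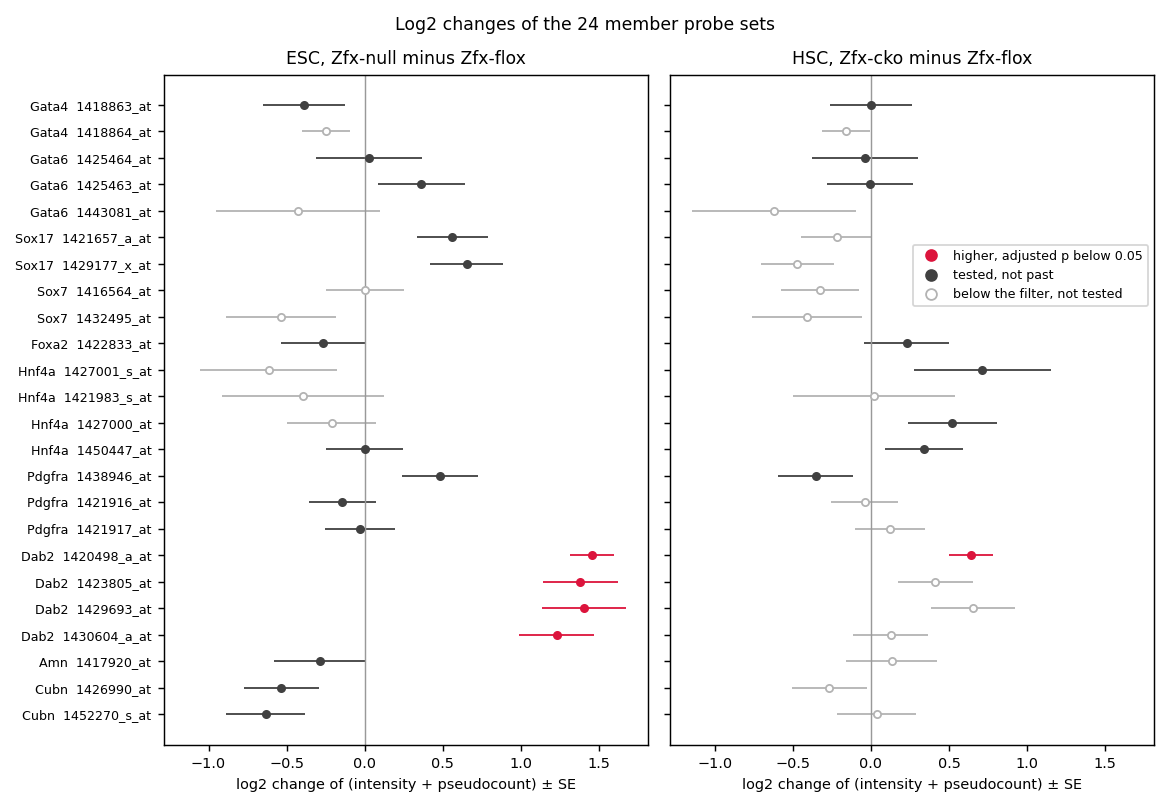
Log2 change with SE (2 arrays per group) of each member probe set, Zfx-null minus Zfx-flox in ESC and Zfx-cko minus Zfx-flox in HSC. The 4 Dab2 probe sets lie at 1.23 to 1.46 in ESC, and the other tested members lie between −0.63 and 0.65.

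The other genes of the endoderm programs were read from lists by 1 probe set a gene, where 15.1% of 12677 tested genes were higher and 14.1% lower in Zfx-null ESC. Of 16 visceral endoderm genes 15 were measured and 7 tested, with 0 higher (0 at an unadjusted p below 0.05, limma) and 2 lower. The protease inhibitor Spink1 read 412 and 387 in Zfx-null ESC, against 1025 and 982 in Zfx-flox ESC (log2 change −1.30 ± 0.26, adjusted p = 0.00779). The lipid carrier Apoe read 3152 and 2108 in Zfx-null ESC, against 5229 and 4010 in Zfx-flox ESC (−0.83 ± 0.21, adjusted p = 0.0248). Lrp2, which encodes megalin, read 1560 and 1460 in Zfx-null ESC, against 1271 and 1125 in Zfx-flox ESC and did not pass (0.33 ± 0.15, adjusted p = 0.148), nor did Hhex (0.18 ± 0.11, adjusted p = 0.298). Without Zfx-flox replicate 1 neither Spink1 nor Apoe passed, and without Zfx-null replicate 2 the count of lower genes was 1. The other 8 measured genes were too dim to test, among them Afp, which yolk sac endoderm secretes, and the transcriptional coactivator Cited1. Afp read 33.8 and 41.7 in Zfx-null ESC, against 16.2 and 7.78 in Zfx-flox ESC (log2 change 1.00 ± 0.18). Cited1 read 46.3 and 46.7 in Zfx-null ESC, against 22.2 and 24.1 in Zfx-flox ESC (0.70 ± 0.19). Both Zfx-null arrays were higher for either gene, and with no filter these 2 passed as higher and 2 as lower. The count of higher genes among the 7 was 1 with the larger pseudocount and 1 in a fit of the ESC arrays alone.

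Genes of parietal endoderm and basement membrane moved differently, with 10 of 16 higher and 1 lower (median log2 change 0.60, against −0.03 over all tested genes). Thbd, the thrombin receptor thrombomodulin, read 426 and 476 in Zfx-null ESC, against 136 and 172 in Zfx-flox ESC (1.47 ± 0.16, limma adjusted p = 0.000554). The activin antagonist Fst (1.18 ± 0.21), the collagen chaperone Serpinh1 (1.11 ± 0.11) and the collagen IV chain Col4a2 (1.07 ± 0.11) were also higher, and the laminin chain Lamc1 was lower (−0.46). The Lamc1 call was lost with a smaller pseudocount, with none, with no filter and in a fit without a variance trend. Lamc1 no longer passed without Zfx-flox replicate 1 or Zfx-null replicate 2, and 8 to 11 genes were higher when any 1 array was left out. The keratin Krt8 read 2150 and 2337 in Zfx-null ESC, against 1432 and 1566 in Zfx-flox ESC and did not pass (0.58 ± 0.19, adjusted p = 0.0596), nor did the coagulation inhibitor Tfpi (−0.45 ± 0.16, adjusted p = 0.0754). Mesenchymal cells also make most of these matrix proteins.

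Markers of fibroblasts and mesenchyme, another cell type that expresses Dab2 and basement membrane genes, moved with these results. Of 13 tested, 9 were higher and 0 lower in Zfx-null ESC (0 lower at an unadjusted p below 0.05, limma), and the summed list ran from 32801 to 35851 in Zfx-null ESC and from 18706 to 19104 in Zfx-flox ESC. Col3a1 read 6024 and 6277 in Zfx-null ESC, against 2611 and 2630 in Zfx-flox ESC (1.23 ± 0.10, adjusted p = 0.000140), and S100a4 (1.43 ± 0.15), Lox (1.43 ± 0.17) and Col1a1 (1.22 ± 0.17) were higher too. None of the 13 measured genes was at or below the pseudocount on all 4 ESC arrays. Dcn read 272 and 255 in Zfx-null ESC, against 210 and 196 in Zfx-flox ESC, and did not pass (0.35 ± 0.31, adjusted p = 0.455). The part of such cells in the Dab2 and basement membrane values was not tested. Markers of endothelium, which also makes basement membrane, gave 2 higher and 1 lower of 6 and summed to 1640 and 1676 in Zfx-null ESC and to 1508 and 1608 in Zfx-flox ESC, with 1 higher without Zfx-flox replicate 2 or Zfx-null replicate 1. Macrophage markers gave 0 calls of 7 (1 higher and 1 lower at an unadjusted p below 0.05, limma) and summed to 709 and 749 in Zfx-null ESC and to 749 and 819 in Zfx-flox ESC, with 1 higher without Zfx-flox replicate 1.

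**Figure D3:**
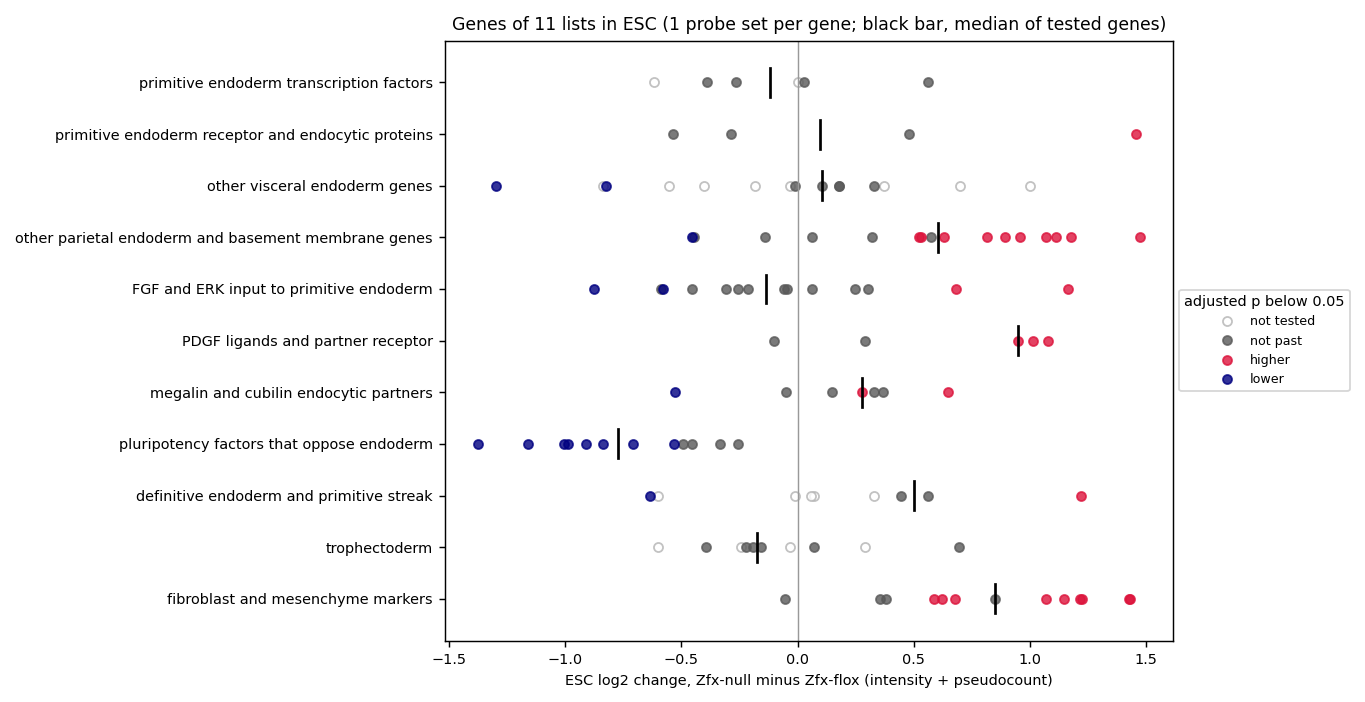
Log2 change in ESC, Zfx-null minus Zfx-flox, of each measured gene of 11 lists (points; black bars, median of the tested genes). Basement membrane, PDGF and fibroblast genes lie to the right with medians of 0.60, 0.95 and 0.85, and pluripotency factors to the left with a median of −0.77, while the primitive endoderm transcription factors lie between −0.62 and 0.56.

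The signals that feed primitive endoderm were read next. Of 14 tested genes of the FGF and ERK input, 2 were higher and 2 lower (median log2 change −0.13), close to the share of all tested genes, 15.1% higher and 14.1% lower. Fgf4, the ligand that epiblast cells supply, read 135 and 148 in Zfx-null ESC, against 221 and 331 in Zfx-flox ESC (−0.88 ± 0.21, limma adjusted p = 0.0179), and the ERK-responsive factor Etv5 was lower as well (−0.58 ± 0.09). The ERK phosphatase Dusp4 (1.16 ± 0.14) and the phosphatase Ptpn11 that relays receptor signals to ERK (0.68 ± 0.06) were higher, and Dusp6 (0.06 ± 0.07) and Fgfr1 (0.25 ± 0.13) did not pass. The lower count was 1 without Zfx-flox replicate 2 or without either Zfx-null array. Of the PDGF ligands and the partner receptor of Pdgfra, 3 of 5 were higher, Pdgfd (1.08 ± 0.26), Pdgfrb (1.01 ± 0.11) and Pdgfc (0.95 ± 0.13). The ligand Pdgfa did not pass (−0.10 ± 0.12). Among partners of megalin and cubilin, the clathrin adaptor subunit Ap2b1 (0.65 ± 0.13) and Clint1 (0.28 ± 0.06) were higher and the megalin chaperone Lrpap1 was lower (−0.53 ± 0.06) of 7 tested, with 1 higher when Zfx-flox replicate 1 or Zfx-null replicate 1 was left out.

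Pluripotency factors were lower in Zfx-null ESC for 8 of 12 and higher for 0 (0 higher at an unadjusted p below 0.05, limma). Over all tested genes 14.1% were lower and 15.1% higher. Nr0b1 read 196 and 181 in Zfx-null ESC, against 532 and 492 in Zfx-flox ESC (−1.37 ± 0.19, adjusted p = 0.00174), and Prdm14 (−1.16 ± 0.23), Pou5f1 (−1.01 ± 0.26) and Tbx3 (−0.99 ± 0.22) were lower too. Sox2 (−0.26 ± 0.17) and Zfp42 (−0.49 ± 0.23) did not pass. The count fell to 3 without a pseudocount or without any 1 of 3 ESC arrays (either Zfx-flox array or Zfx-null replicate 1) and to 4 without Zfx-null replicate 2. Among 4 tested genes of definitive endoderm and primitive streak, Cxcr4 was higher (1.22 ± 0.14) and Nodal lower (−0.64 ± 0.11). Trophectoderm genes gave 0 calls of 6 tested (0 at an unadjusted p below 0.05, limma).

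In HSC, Dab2 was again the member that passed, by 1 of its 4 probe sets. Of the 24 probe sets 9 of 6 genes could be tested, 1 was higher and 0 lower in Zfx-cko HSC (1 at an unadjusted p below 0.05, the same one), where 21.4% of all tested probe sets were higher, 15.9% lower and 37.3% changed in either direction. The Zfx-cko arrays lay above both Zfx-flox arrays for 6 of the 24 and below both for 5, where 32.3% and 25.1% of all probe sets did so. The median log2 change of the 24 was 0.01, against 0.03 over all probe sets. Group means were above the pseudocount for 15 of the 24 in Zfx-cko and 15 in Zfx-flox HSC, against 20 in Zfx-null and 21 in Zfx-flox ESC.

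Dab2 1420498_a_at read 62.7 and 47.1 in Zfx-cko HSC, against 32.8 and 26.9 in Zfx-flox HSC. Both Zfx-cko arrays were higher, and the log2 change was 0.64 ± 0.14 (limma adjusted p = 0.00734, and 0.104 in a fit of the HSC arrays alone). The other 3 Dab2 probe sets were too dim in HSC to test. Of them 1429693_at read 15.2 and 22.5 in Zfx-cko HSC, against 3.18 and 10.8 in Zfx-flox HSC, without overlap, and 1423805_at read 40.2 and 23.2 in Zfx-cko HSC, against 15.0 and 25.3 in Zfx-flox HSC, with overlap. The last, 1430604_a_at, read 24.5 and 17.6 in Zfx-cko HSC, against 20.7 and 15.3 in Zfx-flox HSC, with overlap and a log2 change of 0.13 ± 0.24.

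Megakaryocytes and their platelets carry Dab2, and markers of these and other cell types were read in HSC. Over all genes, 22.3% of 12535 tested were higher and 19.4% lower in Zfx-cko HSC. Of 7 tested megakaryocyte and platelet genes, 4 were higher and 0 lower (0 lower at an unadjusted p below 0.05, limma). Itgb3 was at 2.66 and Itga2b at 0.95 on the log2 scale. The list summed to 4212 and 4252 in Zfx-cko HSC and to 1221 and 1330.5 in Zfx-flox HSC. None of its genes was at or below the pseudocount on all 4 HSC arrays. Macrophages also carry Dab2, and their markers gave 0 calls of 6 (0 at an unadjusted p below 0.05, limma), with a median log2 change of 0.21. They summed to 1114 and 1129.9 in Zfx-cko HSC and to 933 and 1009 in Zfx-flox HSC. Among the 11 measured macrophage genes, 2 (C1qa and C1qc) were at or below the pseudocount on all 4 HSC arrays. Of 7 mature blood lineage markers 4 were measured and 1 tested, with 0 calls (0 at an unadjusted p below 0.05, limma), and they summed to 78.6 and 106.7 in Zfx-cko HSC and to 48.8 and 67.9 in Zfx-flox HSC. Endothelial markers were higher for 3 of 5 tested and summed to between 663 and 750.4 in Zfx-cko HSC and between 481 and 534 in Zfx-flox HSC. Fibroblast markers were higher for 3 of 8 tested and summed to 6687 and 7259 in Zfx-cko HSC and to 5265 and 5582 in Zfx-flox HSC. The part of any of these cell types in the Dab2 value was not tested.

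**Figure D4:**
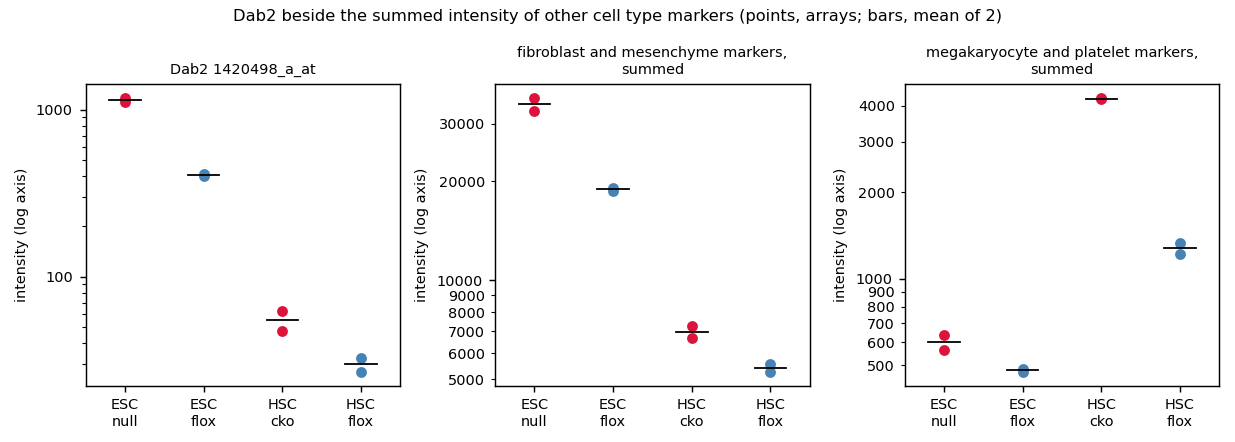
Intensity of Dab2 (1420498_a_at) and summed intensity of fibroblast and of megakaryocyte markers on each array (log axes; points are arrays, bars the mean of 2). Fibroblast markers sum to 32801 to 35851 in Zfx-null against 18706 to 19104 in Zfx-flox ESC, and megakaryocyte markers to 4212 to 4252 in Zfx-cko against 1221 to 1330.5 in Zfx-flox HSC.

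Hnf4a did not pass in HSC in the joint fit of all arrays but did under 3 of the alternatives. Probe set 1427001_s_at read 249.8 and 182.0 in Zfx-cko HSC, against 137.5 and 112.7 in Zfx-flox HSC, and both Zfx-cko arrays were higher. The log2 change of 0.71 ± 0.44 had a limma adjusted p of 0.246 in the joint fit, which shares its spread with the ESC arrays. It passed in a fit of the HSC arrays alone (adjusted p = 0.0253) and without Zfx-flox ESC replicate 1 (adjusted p = 0.0417) or replicate 2 (adjusted p = 0.0338). Hnf4a 1427000_at (log2 change 0.52, adjusted p = 0.192) and 1450447_at (0.34, adjusted p = 0.330) also had both Zfx-cko arrays higher and did not pass, and 1421983_s_at overlapped between groups.

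No probe set of the remaining members passed in HSC. Gata4 1418863_at read 38.6 and 20.2 in Zfx-cko HSC, against 26.1 and 30.9 in Zfx-flox HSC, with overlap (log2 change −0.00 ± 0.26, limma adjusted p = 1.00). Gata6 1425464_at read 57.5 and 27.0 in Zfx-cko HSC, against 60.4 and 27.6 in Zfx-flox HSC, and the arrays within a group differed more than the groups did. Gata6 1425463_at read 62.8 and 48.0 in Zfx-cko HSC, against 68.3 and 44.4 in Zfx-flox HSC. Foxa2 read 23.8 and 38.5 in Zfx-cko HSC, against 30.5 and 18.4 in Zfx-flox HSC (0.23 ± 0.27, adjusted p = 0.565).

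Pdgfra 1438946_at read 38.7 and 30.4 in Zfx-cko HSC, against 43.5 and 52.8 in Zfx-flox HSC, with both Zfx-cko arrays lower (−0.35 ± 0.24, limma adjusted p = 0.299). Its other probe sets read at most 3.85 on any HSC array. Pdgfrb, the partner receptor, read 843 and 810 in Zfx-cko HSC, against 197 and 194 in Zfx-flox HSC (log2 change 2.00). Sox17, Sox7, Amn and Cubn had no probe set bright enough to test in HSC, and Sox17 1421657_a_at read 18.6 and 23.6 in Zfx-cko HSC, against 26.3 and 27.2 in Zfx-flox HSC. Other visceral endoderm genes were higher in Zfx-cko HSC for 3 of 5 tested, where 22.3% of 12535 tested genes were higher and 19.4% lower, among them Afp, the yolk sac and fetal liver albumin-like protein (1.21), and Hhex, which early blood progenitors also express (0.86).

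The effect of losing Zfx was then compared between the cell types, as the HSC effect minus the ESC effect, for the 7 member probe sets tested in both. Dab2 1420498_a_at was the 1 called, with a smaller change in HSC than in ESC (difference −0.81 ± 0.20, limma adjusted p = 0.0154), where 14.4% of all tested probe sets were called lower, 17.5% higher and 31.8% in either direction. The difference did not pass with a smaller pseudocount (−0.68, adjusted p = 0.0537), with none (−0.62, adjusted p = 0.0943) or without Zfx-null ESC replicate 1 (−0.77, adjusted p = 0.0605). Pdgfra 1438946_at had a difference of −0.84 that did not pass (adjusted p = 0.0986), and the other 5 probe sets did not pass either.

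The genes whose pattern over the 8 arrays lay nearest to that of Dab2 1420498_a_at, by the root mean square difference of centred log2 values among 12676 tested genes, were Phldb2 (0.133), Tpbg (0.172) and Fhl1 (0.195). Phldb2, an adaptor that anchors microtubules at the basal cell cortex, read 2059 and 1983 in Zfx-null ESC, against 836 and 882 in Zfx-flox ESC, and 115 and 113 in Zfx-cko HSC, against 65.9 and 68.6 in Zfx-flox HSC. Tpbg, a surface glycoprotein of trophoblast, read 552 and 582 in Zfx-null ESC, against 259 and 233 in Zfx-flox ESC. Fhl1, a LIM domain protein of muscle, read 2161 and 2252 in Zfx-null ESC, against 991 on both arrays in Zfx-flox ESC. These 3 were chosen for their likeness, so their changes are a description.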

How the data were processed

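Expression was measured on 8 arrays in 4 groups of 2. The authors deposited linear intensities, 1 per probe set, and the submitters' processing notes name GCOS 1.4. How probes were summarised is not stated there. The deposited intensities of each array had a trimmed mean of 250 (2% trimmed), and that scaling was kept. Arrays give no counts, so the number of arrays and the signal limit the precision.

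The 64 control probe sets were left out, and 0 value columns lacked a sample. Of the rest, 34945 probe sets had 1 gene symbol, 932 several and 9160 none, and 34741 matched RefSeq (GRCm38.p6) by identifier. The pseudocount, 14.2, was the 25th percentile of all deposited intensities. A probe set was tested where its mean over the 4 arrays of a cell type reached the 40th percentile. A model of 4 group means on log2 values was fitted with limma 3.58.1 (R 4.3.3), using moderated variances with a trend on the mean and 4 residual degrees of freedom, with Benjamini-Hochberg adjustment over all tested probe sets and a threshold of 0.05. The fit was tested on simulated data. With 2 arrays against 2, an exact permutation test cannot go below p = 0.333, so none was run, and no outlier test applied.

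Named genes were all members, from each list at most 4 that passed in ESC (by size of change) and at most 2 that did not (by ESC level), the 3 genes nearest in pattern to Dab2, and Zfx. Beyond this rule, Cited1, Lamc1, Pdgfrb and Itgb3, Itga2b, Afp (also in ESC), Hhex, C1qa and C1qc in HSC were named after their values were seen. Lists use 1 probe set per gene, the one with the highest mean log2 value. The members and lists were chosen with earlier results of these data known. Alternatives numbered 19 and changed the pseudocount, scaling, filter, fit, unit or the arrays used.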

Additional observations from a re-analysis of the deposited data

Results flagged for a closer look

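The effect of losing Zfx differed between the cell types for Dab2 1420498_a_at by −0.81 on the log2 scale, HSC effect minus ESC effect (limma adjusted p = 0.0154). Both arrays were higher without Zfx in either cell type. The difference did not pass with a smaller pseudocount or with none. Amplification also differed between the cell types, so a difference by cell type cannot be told apart from one by amplification.

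For Sox17 1421657_a_at both arrays lay above Zfx-flox in Zfx-null ESC and below Zfx-flox in Zfx-cko HSC. The HSC effect minus the ESC effect was −0.78, which was not tested, since the HSC level was under the filter on low values (limma adjusted p = 0.151 with no filter). The value for Sox17 1429177_x_at was −1.12, also not tested. Its HSC arrays read at most 8.76, below the pseudocount of 14.2, so it has no measured direction in HSC.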

How the results depend on the processing

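Dab2 1420498_a_at passed in ESC under all 19 alternatives, and its direction in HSC and for the difference held under each alternative that could test it. The count of ESC member calls was 1 with 1 probe set per gene. The count of HSC calls was 0 with a filter at the 60th percentile, which left 1 member probe set to test. The count for the difference was 0 with a pseudocount at the 10th percentile, 0 without a pseudocount (chosen after seeing the data) and 0 with the stricter filter, which left 0 to test. Leaving out 1 array gave 3 to 4 calls in ESC, 1 to 2 in HSC and 0 to 2 for the difference. The low counts came without Zfx-null ESC replicate 1, the higher HSC count (Hnf4a 1427001_s_at) without either Zfx-flox ESC array, and the higher count for the difference (Dab2 1423805_at) without Zfx-flox HSC replicate 1. A pseudocount at the 50th percentile gave 6 calls in ESC and a fit without a variance trend 5.

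Changes near 0 turned sign. Hnf4a 1450447_at in ESC was 0.00017 with a pseudocount at the 50th percentile and 0.02 with quantile normalization over all arrays (0.018988) or within each cell type (0.019474), and Gata4 1418863_at in HSC was 0.0076 with that pseudocount. With 1 array left out, the log2 change in ESC ran from −0.034 to 0.087 for Gata6 1425464_at, from −0.13 to 0.12 for Hnf4a 1450447_at and from −0.13 to 0.068 for Pdgfra 1421917_at. In HSC it ran from −0.31 to 0.31 for Gata4 1418863_at, from −0.46 to 0.38 for Gata6 1425464_at and from −0.25 to 0.24 for Gata6 1425463_at, and the difference for Gata6 1425464_at from −0.48 to 0.35. The cause of these moves was not tested.

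Groups share replicate numbers, and no source used here says whether these pair the arrays. The log2 difference of replicate 1 minus replicate 2 was taken in each group. Across tested probe sets, the correlation of this difference between the groups of a cell type was 0.317 in ESC and 0.0676 in HSC. Each cell type had 2 pairs of same-numbered arrays. With the replicate number as a block the member calls were 4 in ESC, 1 in HSC and 1 for the difference, and calls over all probe sets were 7920 in ESC, 11238 in HSC and 8544 for the difference, against 6596, 10081 and 7259 without it. Counts over the gene lists in ESC ran from 7 to 11 higher for basement membrane genes, from 6 to 10 higher for fibroblast markers and from 3 to 10 lower for pluripotency factors.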
